A study of Mus musculus with 18 samples.

Results

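Macrophages display a set of surface proteins that raise or restrain T cell activation, and 8 genes of this set were followed here in RAW 264.7 cells: *Cd80*, *Cd86*, *Cd83*, *Icosl*, *Cd274*, *Pdcd1lg2*, *Vsir* and *Havcr2*. They were taken by symbol from the 56748 genes that the authors list, and 7 of the 8 had enough counts to be tested. RAW 264.7 is an immortalized line of mouse macrophages, and 3 libraries were made from each of 6 groups, 18 in all. In the deposited values the heading of every library begins with WT, a label that all groups share. The untreated cells are the control. TBHQ (tert-butylhydroquinone, a phenolic food antioxidant) was given alone at 5 µM and these cells were lysed after 4 h. TBHQ was dissolved in DMSO, and the paper names no DMSO control for the RNA libraries. Effects of TBHQ and of its solvent therefore cannot be told apart in any group given TBHQ. LPS (lipopolysaccharide, a bacterial stimulus) was given at 0.1 µg/mL for 12 h, and PIC (poly I:C, a mimic of double-stranded RNA) at 20 µg/mL for 12 h. In the groups LPS + TBHQ and PIC + TBHQ, cells received TBHQ for 4 h and then LPS or PIC for 12 h more. All groups come from 1 cell line, and the replicates are described as biological replicates. The cells given TBHQ alone were lysed earlier than the stimulated cells, so treatment and time cannot be told apart in comparisons with that group. The paper gives no lysis time for the control, so the same may hold for comparisons with the control.

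A T cell that meets its antigen on an MHC molecule reads further signals from the presenting cell. CD80 and CD86 bind CD28, which costimulates, and CTLA-4, which restrains, while ICOS ligand binds ICOS and CD83 marks activated antigen-presenting cells and stabilizes MHC class II and CD86 at the surface. PD-L1, encoded by *Cd274*, and PD-L2, encoded by *Pdcd1lg2*, bind the inhibitory receptor PD-1, VISTA, encoded by *Vsir*, restrains T cells and myeloid cells, and TIM-3, encoded by *Havcr2*, is an inhibitory receptor rather than a classical ligand.

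The libraries held 14423390 to 18851626 counts on genes, with a median of 15742337, and 3 counts, the limit that a count of 0 allows, corresponded to 0.159 to 0.208 CPM (counts scaled to the library total). Levels are given as the FPKM that the authors deposited (fragments scaled to gene length and library size), which allow comparison between genes, with the SD over 3 libraries. They equal counts over gene length and library total times a constant per library, which follows the treatment: its mean was 0.947 in the control, 0.950 with TBHQ alone, 1.01 and 0.995 in the groups given LPS, and 1.11 and 1.05 in those given PIC, TBHQ second. That constant times the TMM factor of the tests was 1.00 to 1.02 in all libraries. Without the constant, TBHQ alone and each PIC group overlap for *Vsir* and the 2 stimuli alone overlap for *Icosl*. *Vsir* and *Cd86* with LPS + TBHQ, and *Cd86* and *Havcr2* with PIC + TBHQ, then lie below the control, and for *Havcr2* the LPS and PIC libraries no longer overlap, with or without TBHQ. The control and LPS then overlap for *Cd83*. Differences are log2 fold changes (log2FC) from edgeR's quasi-likelihood test on the counts of 13691 genes, each with an SE from the spread of the replicates and an FDR (p adjusted by Benjamini-Hochberg over all genes tested). A gene was called at an FDR below 0.05. The TMM scaling used kept the median log2FC of all genes between -0.015 and 0.0091. Scaling by library total instead moved the median log2FC of all genes to -0.23 for PIC against the control, -0.15 for PIC + TBHQ against the control, and -0.14 for PIC against LPS and for PIC + TBHQ against TBHQ. Of the called genes in the lists below, it turned the direction of *Cd74* and *Spi1* for PIC against the control, of *Ctss* for PIC against LPS and of *Cd68* for PIC + TBHQ against TBHQ. In RNA from whole cultures, fewer cells expressing a gene and less RNA per cell cannot be told apart.

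Summed over the 8 genes, the level was 51.9 ± 3.22 FPKM in the control and 42.7 ± 1.01 with TBHQ alone. LPS brought the sum to 78.0 ± 1.77 FPKM and LPS + TBHQ to 53.2 ± 0.920. With PIC it was 101 ± 0.928 FPKM and with PIC + TBHQ 66.3 ± 0.604. The sums of the PIC and LPS libraries lay above those of the same stimulus with TBHQ, and the LPS + TBHQ sums overlapped the control. The makeup of the sum differed between groups. *Vsir* made up 34.3% ± 0.396 (SD, n = 3) of it in the control and 14.6% ± 0.579 with PIC. *Cd274* went from 11.5% ± 0.360 in the control to 34.7% ± 1.15 with PIC, and stood at 35.2% ± 0.488 with PIC + TBHQ.

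**Figure D1:**
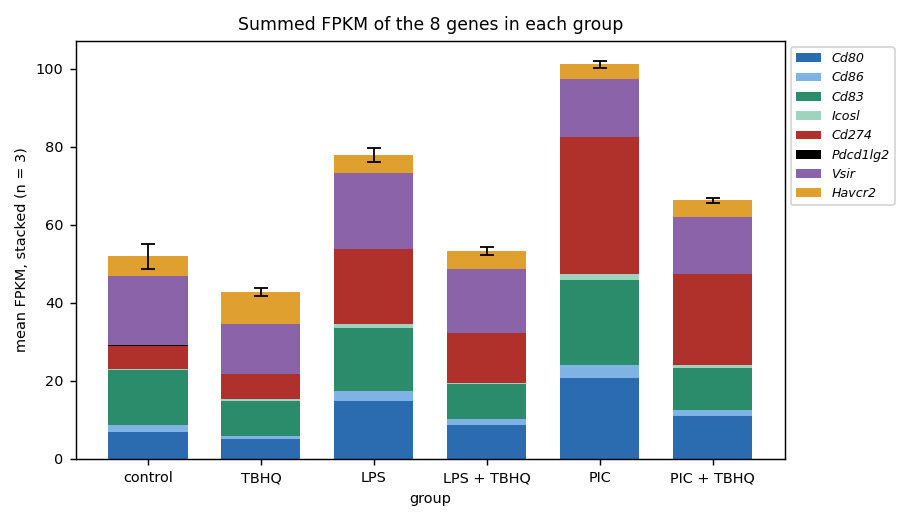
Stacked bars give the mean FPKM of each of the 8 genes in each group (n = 3), and the error bar is the SD of the summed FPKM. The sum was highest with PIC at 101 FPKM and lowest with TBHQ alone at 42.7 FPKM, and the *Cd274* segment is tallest in PIC.

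In the control the genes ranked, from the highest FPKM, *Vsir*, *Cd83*, *Cd80*, *Cd274*, *Havcr2*, *Cd86*, *Icosl* and *Pdcd1lg2*, and of the neighbours in this order *Cd274* and *Havcr2* overlapped between libraries. With LPS, *Vsir* (19.4 ± 1.29 FPKM) and *Cd274* (19.4 ± 0.578 FPKM) shared the first place and overlapped, followed by *Cd83* and *Cd80*, which overlapped as well. PIC put *Cd274* first at 35.1 ± 0.910 FPKM, above *Cd83* and *Cd80*, whose libraries overlapped, and *Vsir*. PIC + TBHQ also had *Cd274* first, at 23.3 ± 0.517 FPKM, with *Vsir* next and *Cd80* and *Cd83* overlapping behind it. LPS + TBHQ had *Vsir* first at 16.5 ± 0.888 FPKM, with no overlap with *Cd274*. The lower places, *Cd86*, *Icosl* and *Pdcd1lg2*, came in the same order in all 6 groups.

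**Figure D2:**
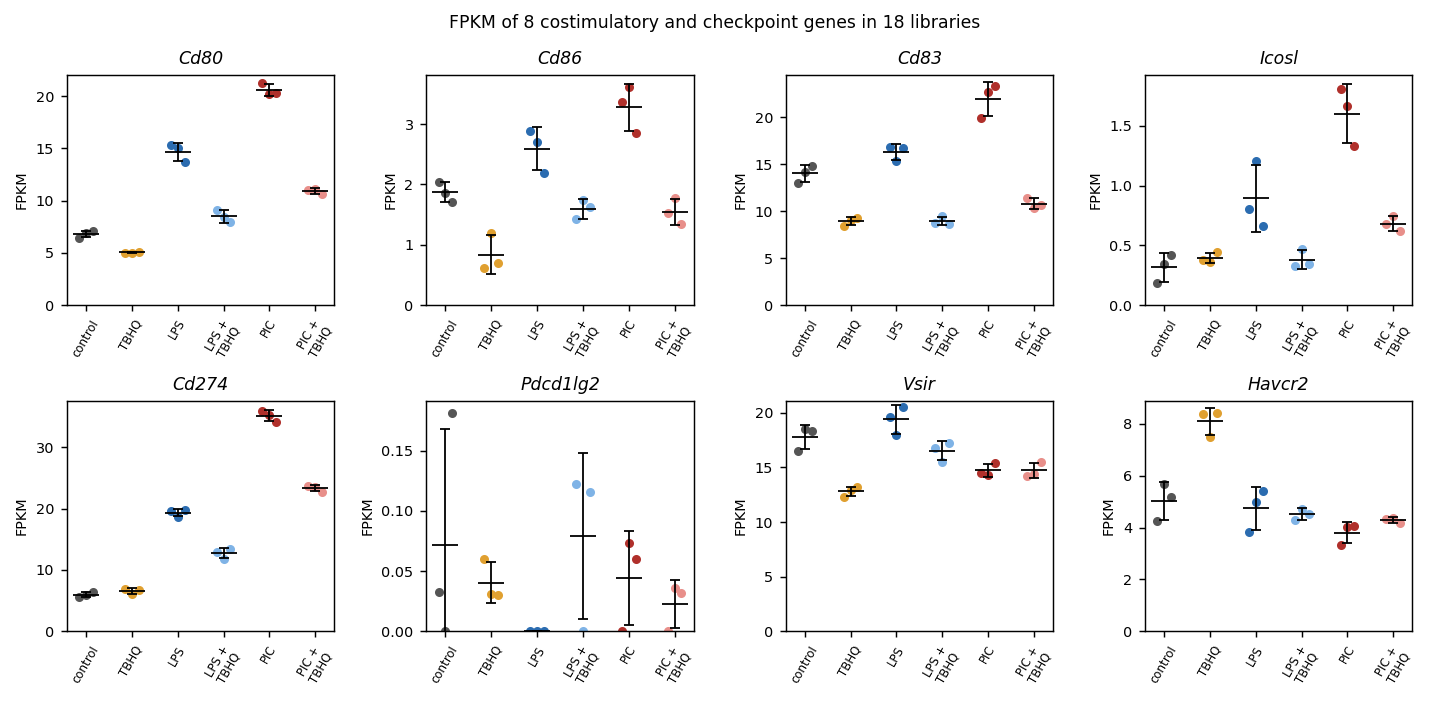
Each panel gives the FPKM of 1 gene in the 18 libraries, with a point for each library, a line at the mean and an error bar for the SD (n = 3, cut off at 0 on the FPKM axis). *Cd274* reaches 34.2 to 36.0 FPKM with PIC against 5.65 to 6.36 in the control, and *Pdcd1lg2* stays at or below 0.181 FPKM.

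*Cd80*, a ligand of CD28 and CTLA-4 of the B7 family, stood at 6.46, 6.85 and 7.05 FPKM in the 3 control libraries and at 5.01, 5.004 and 5.09 with TBHQ alone. The 3 LPS libraries held 15.3, 15.03 and 13.7 FPKM and the 3 LPS + TBHQ libraries 9.11, 8.44 and 7.93. PIC gave 21.2, 20.2 and 20.3 FPKM and PIC + TBHQ 11.02, 11.1 and 10.6. All 6 groups were separate from one another, with PIC highest and TBHQ alone lowest. *Cd80* rose with LPS (log2FC = 1.11 ± 0.061, FDR = 4.3e-17) and with PIC (log2FC = 1.58 ± 0.043, FDR = 2.3e-22), and it was higher with PIC than with LPS (log2FC = 0.48 ± 0.055, FDR = 2.7e-08). With TBHQ before the stimulus it was lower than with the stimulus alone, both for LPS (log2FC = -0.79 ± 0.075, FDR = 7.3e-13) and for PIC (log2FC = -0.91 ± 0.031, FDR = 6.3e-15). The level after TBHQ and a stimulus was still above the control, with LPS (log2FC = 0.31 ± 0.068, FDR = 1.6e-04) and with PIC (log2FC = 0.68 ± 0.042, FDR = 3.1e-11). With TBHQ alone it was lower than in the control (log2FC = -0.43 ± 0.037, FDR = 8.5e-06).

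*Cd86*, the other B7 ligand of CD28 and CTLA-4, was counted far less often than *Cd80*. Its FPKM was 2.05, 1.86 and 1.71 in the control, from 115, 111 and 106 counts, and 0.609, 1.20 and 0.689 with TBHQ alone, from 38, 72 and 43 counts. With LPS it was 2.88, 2.70 and 2.20 FPKM and with LPS + TBHQ 1.42, 1.74 and 1.62. With PIC it was 3.36, 3.62 and 2.86 FPKM and with PIC + TBHQ 1.53, 1.77 and 1.35. The libraries of each stimulus alone lay above the control and above those with TBHQ, the LPS and PIC libraries overlapped, and with TBHQ alone 1 library lay well above the rest. *Cd86* rose with PIC (log2FC = 0.79 ± 0.12, FDR = 4.4e-05) and with LPS (log2FC = 0.46 ± 0.14, FDR = 0.0161). The LPS call was lost in limma on log2(FPKM + 0.1) at 0.44, without control replicate 3 at 0.40 and without LPS replicate 1 at 0.39. It was lower in LPS + TBHQ than in LPS (log2FC = -0.70 ± 0.14, FDR = 0.00121) and lower in PIC + TBHQ than in PIC (log2FC = -1.07 ± 0.15, FDR = 2.2e-06). TBHQ alone gave the lowest level, below the control in each library (log2FC = -1.17 ± 0.30, FDR = 6.4e-06). Neither LPS + TBHQ (log2FC = -0.24 ± 0.11, FDR = 0.262) nor PIC + TBHQ (log2FC = -0.28 ± 0.13, FDR = 0.167) passed the test against the control, although scaling by library total put PIC + TBHQ below it at -0.43.

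The ratio of *Cd80* to *Cd86* in FPKM was 3.65 ± 0.480 (SD, n = 3) in the control, 5.71 ± 0.478 with LPS and 6.35 ± 0.764 with PIC. With LPS + TBHQ it was 5.38 ± 0.890 and with PIC + TBHQ 7.13 ± 0.790. The stimulated libraries, with or without TBHQ, all lay above the control in this ratio, and each stimulus overlapped the same stimulus with TBHQ. TBHQ alone spread widely, at 6.59 ± 2.14. These ratios were not tested.

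*Cd83*, the marker of activated antigen-presenting cells, held 13.0, 14.2 and 14.8 FPKM in the control and 8.44, 9.04 and 9.31 with TBHQ alone. LPS libraries held 16.9, 15.3 and 16.8 FPKM and LPS + TBHQ libraries 8.79, 9.46 and 8.62. PIC libraries held 19.9, 22.7 and 23.3 FPKM and PIC + TBHQ libraries 11.4, 10.3 and 10.6. The 3 groups with TBHQ were the 3 lowest, below every control library, and LPS + TBHQ overlapped TBHQ alone. *Cd83* rose with PIC (log2FC = 0.63 ± 0.088, FDR = 3.4e-10) and, by a small step, with LPS (log2FC = 0.21 ± 0.068, FDR = 0.0118). The call with LPS was lost when libraries were scaled by their total, at 0.12, and without control replicate 1, at 0.16. Against the stimulus alone, *Cd83* fell in LPS + TBHQ (log2FC = -0.87 ± 0.058, FDR = 6.8e-12) and in PIC + TBHQ (log2FC = -1.02 ± 0.083, FDR = 3.3e-14). Unlike *Cd80*, it then lay below the control, both with LPS + TBHQ (log2FC = -0.66 ± 0.067, FDR = 1.8e-09) and with PIC + TBHQ (log2FC = -0.39 ± 0.070, FDR = 2.3e-05). TBHQ alone also lay below the control (log2FC = -0.66 ± 0.067, FDR = 7.0e-09). Against TBHQ alone, the values were log2FC = -0.0030 ± 0.057, FDR = 0.979 for LPS + TBHQ and log2FC = 0.27 ± 0.060, FDR = 0.00273 for PIC + TBHQ, the latter being lost under scaling by library total at 0.12.

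*Icosl*, which encodes the ligand of ICOS, was low, with 13, 26 and 33 counts in the control (0.183, 0.345 and 0.423 FPKM) and 30, 27 and 35 with TBHQ alone (0.381, 0.357 and 0.444 FPKM). LPS gave 53, 80 and 44 counts (0.807, 1.21 and 0.666 FPKM) and LPS + TBHQ 25, 36 and 28 (0.324, 0.469 and 0.345 FPKM). PIC gave 114, 107 and 104 counts (1.81, 1.67 and 1.33 FPKM) and PIC + TBHQ 48, 49 and 46 (0.676, 0.746 and 0.621 FPKM). The PIC libraries were the highest, LPS + TBHQ and TBHQ alone overlapped the control, and PIC + TBHQ lay above the control, below PIC and overlapped LPS. *Icosl* rose with LPS (log2FC = 1.47 ± 0.41, FDR = 1.0e-05) and with PIC (log2FC = 2.29 ± 0.35, FDR = 2.1e-10), and PIC exceeded LPS (log2FC = 0.82 ± 0.28, FDR = 0.00243). It was lower in LPS + TBHQ than in LPS (log2FC = -1.24 ± 0.29, FDR = 2.2e-04) and lower in PIC + TBHQ than in PIC (log2FC = -1.22 ± 0.15, FDR = 2.5e-05). PIC + TBHQ was above the control (log2FC = 1.08 ± 0.34, FDR = 8.1e-04), whereas LPS + TBHQ against the control gave log2FC = 0.23 ± 0.36, FDR = 0.554. With TBHQ alone against the control the value was log2FC = 0.30 ± 0.34, FDR = 0.486.

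*Cd274*, which encodes PD-L1, held 5.65, 5.93 and 6.36 FPKM in the control and 6.90, 6.08 and 6.72 with TBHQ alone. In LPS libraries it held 19.6, 18.7 and 19.8 FPKM and in LPS + TBHQ libraries 12.9, 11.8 and 13.4. In PIC libraries it held 36.0, 35.3 and 34.2 FPKM and in PIC + TBHQ libraries 23.7, 23.6 and 22.7. The 4 stimulated groups were separate from one another and from the unstimulated cells, and PIC + TBHQ lay above LPS alone. *Cd274* rose with LPS (log2FC = 1.69 ± 0.054, FDR = 4.8e-23) and with PIC (log2FC = 2.54 ± 0.053, FDR = 2.1e-29), a fold of 3.22 and 5.80. PIC exceeded LPS (log2FC = 0.85 ± 0.033, FDR = 6.6e-16). With TBHQ before the stimulus it was lower, with LPS (log2FC = -0.61 ± 0.059, FDR = 3.0e-11) and with PIC (log2FC = -0.58 ± 0.029, FDR = 8.2e-12), to 0.656 and 0.669 of the level with the stimulus alone. Both groups were still above the control, LPS + TBHQ with log2FC = 1.08 ± 0.073, FDR = 8.1e-17 and PIC + TBHQ with log2FC = 1.96 ± 0.051, FDR = 2.2e-25. TBHQ alone overlapped the control and was not called (log2FC = 0.13 ± 0.073, FDR = 0.145).

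Relative to *Cd80*, *Cd274* stood at 0.881 ± 0.0185 in untreated cells as a ratio of FPKM (SD, n = 3). The ratio was 1.71 ± 0.033 with PIC and 1.32 ± 0.108 with LPS. With LPS + TBHQ the ratio was 1.502 ± 0.161, overlapping LPS, and with PIC + TBHQ it was 2.14 ± 0.0194, above every PIC library. TBHQ alone gave 1.305 ± 0.0831, above every control library. The inhibitory ligand made up more of this pair in each group than in the control, and the ratios were not tested.

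*Pdcd1lg2*, which encodes PD-L2 and lies next to *Cd274* on chromosome 19, was at or near the floor in every group. It had 1, 0 and 6 counts in the control, 2, 1 and 1 with TBHQ alone and 4, 0 and 4 with LPS + TBHQ. PIC gave 0, 2 and 2 counts, PIC + TBHQ 0, 1 and 1, and the 3 LPS libraries 0, which allows up to 0.208 CPM. No group stood apart from all the others. LPS lay below TBHQ alone, but the counts of both were under the floor of 3 counts. The gene did not pass the filter on low counts, so no fold change is given. A difference between groups in *Pdcd1lg2* was not detectable at this depth.

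*Vsir*, which encodes VISTA, had the highest mean count of the set, 1258 per library. It held 16.6, 18.5 and 18.3 FPKM in the control and 12.3, 12.9 and 13.2 with TBHQ alone. LPS gave 19.6, 17.999 and 20.5 FPKM and LPS + TBHQ 16.8, 15.5 and 17.3. PIC gave 14.5, 14.3 and 15.4 FPKM and PIC + TBHQ 14.2, 14.4 and 15.5. The TBHQ libraries were the lowest, the PIC libraries lay below the control with or without TBHQ, and LPS overlapped the control. *Vsir* fell with PIC (log2FC = -0.29 ± 0.061, FDR = 2.2e-05) and with TBHQ alone (log2FC = -0.48 ± 0.058, FDR = 1.2e-08). With LPS it was not called (log2FC = 0.12 ± 0.075, FDR = 0.0727), but it was called higher with genes of at least 50 mean counts (0.14), without control replicate 2 (0.14), without LPS replicate 2 (0.18) and without PIC replicate 3 (0.13). LPS + TBHQ was lower than LPS (log2FC = -0.23 ± 0.071, FDR = 0.00111), and PIC + TBHQ against PIC gave log2FC = 0.0086 ± 0.052, FDR = 0.928. The difference between these effects of TBHQ was 0.24 ± 0.088 with an FDR of 0.11, and it was called only with scaling by library total (0.28) or without LPS replicate 2 (0.27). PIC was lower than LPS (log2FC = -0.40 ± 0.063, FDR = 3.5e-07). LPS + TBHQ against the control gave log2FC = -0.12 ± 0.069, FDR = 0.0745, a value that was called lower with scaling by library total (-0.18), without control replicate 1 (-0.17) and without LPS + TBHQ replicate 3 (-0.15). PIC + TBHQ lay below the control (log2FC = -0.28 ± 0.065, FDR = 4.0e-05).

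*Havcr2*, which encodes the receptor TIM-3, held 4.24, 5.68 and 5.20 FPKM in the control, from 177, 252 and 239 counts, and 8.39, 7.51 and 8.43 with TBHQ alone, from 389, 334 and 391 counts. LPS gave 3.83, 4.99 and 5.42 FPKM and LPS + TBHQ 4.29, 4.73 and 4.52. PIC gave 3.34, 4.02 and 4.06 FPKM and PIC + TBHQ 4.33, 4.37 and 4.17. TBHQ alone was separate from and above all other groups, and among the rest PIC was below the control while the others overlapped it. The PIC + TBHQ libraries lay above those of PIC. *Havcr2* was the 1 gene of the set that rose with TBHQ alone (log2FC = 0.68 ± 0.13, FDR = 5.2e-06). It fell with PIC (log2FC = -0.42 ± 0.15, FDR = 0.00269) and was not called with LPS (log2FC = -0.096 ± 0.20, FDR = 0.526). Against the stimulus alone, the values were log2FC = -0.075 ± 0.16, FDR = 0.716 for LPS + TBHQ and log2FC = 0.18 ± 0.092, FDR = 0.291 for PIC + TBHQ. PIC against LPS passed narrowly (log2FC = -0.32 ± 0.18, FDR = 0.044), with libraries that overlapped. This call was lost in DESeq2 (-0.32), in edgeR on these groups alone (-0.32), with RLE size factors (-0.31) and in limma on log2(FPKM + 1) (-0.25) and log2(FPKM + 0.1) (-0.30). It was also lost without LPS replicate 2 (-0.28), LPS replicate 3 (-0.21), PIC replicate 1 (-0.24) or PIC replicate 2 (-0.36). Both groups given TBHQ and a stimulus lay far below TBHQ alone, LPS + TBHQ with log2FC = -0.85 ± 0.068, FDR = 3.0e-08 and PIC + TBHQ with log2FC = -0.92 ± 0.057, FDR = 5.7e-09. Both were also lysed later than TBHQ alone, so stimulus and time cannot be told apart here. PIC + TBHQ against the control was not called (log2FC = -0.24 ± 0.13, FDR = 0.0808), but was called lower with scaling by library total (-0.39) and without control replicate 1 (-0.35).

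**Figure D3:**
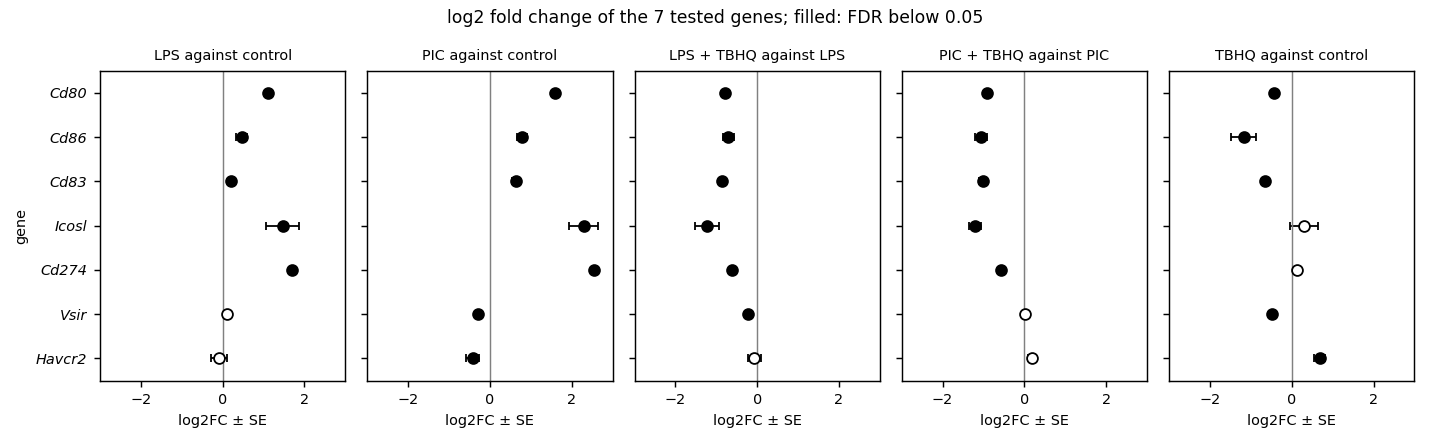
Points give the log2FC of the 7 tested genes in 5 comparisons, with the SE as error bar, filled where the FDR was below 0.05. In LPS + TBHQ against LPS, 6 points are filled and all of them lie below 0, and in PIC against control the *Cd274* point lies at 2.54.

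The stimuli alone raised most of the set. With LPS, 5 of the 7 tested genes were higher than in the control, where 24.0% of all tested genes were higher, and 0 were lower, against 24.1% of all genes. For that 0, edgeR gave 0 members lower at an unadjusted p below 0.05 as well, and DESeq2 and limma gave 0 at an FDR below 0.05. With PIC, 5 were higher (28.6% of all tested genes) and 2 lower (30.1% of all). The median log2FC over the 7 genes was 0.46 with LPS and 0.79 with PIC, beside -0.0040 and -0.015 over all tested genes. At the threshold of the study, an FDR below 0.01 and a log2FC above 2, *Cd274* and *Icosl* passed with PIC, where 2.7% of all genes did, and 0 members passed with LPS, where 1.34% did. PIC against LPS gave 4 members higher (14.9% of all genes) and 2 lower (12.8% of all), with a median of 0.42 against -0.0087 over all. The comparisons with the control share its 3 libraries, so their counts are not independent.

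With TBHQ before the stimulus, most of the set was lower than with the stimulus alone. In LPS + TBHQ against LPS, 6 of the 7 tested genes were lower, while 12.2% of all tested genes were, and 0 were higher, against 11.7% of all. In PIC + TBHQ against PIC, 5 were lower (15.5% of all genes) and 0 higher (15.8% of all). In both comparisons edgeR also gave 0 members higher at an unadjusted p below 0.05, and DESeq2 and limma gave 0 at an FDR below 0.05. The median log2FC of the 7 genes was -0.70 with LPS and -0.91 with PIC, beside 0.0023 and 0.0089 over all genes. The direct test of whether the effect of TBHQ differed between the stimuli called 0 members higher and 0 lower, where 0.825% and 1.01% of all genes were called. At an unadjusted p below 0.05 edgeR gave 1 member higher there, *Vsir*, and 0 lower, and at an FDR below 0.05 DESeq2 and limma gave 0. The median difference over the 7 genes was 0.020, beside 0.0091 over all. A p that misses the threshold does not show that the effects were equal. The comparisons of LPS + TBHQ with LPS and of LPS with the control share the LPS libraries, and those for PIC share the PIC libraries.

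TBHQ alone against the control gave 4 of the 7 tested genes lower (14.8% of all genes) and 1 higher (14.2% of all), with a median of -0.43 beside -0.0001 over all. A further set of comparisons was added after the counts had been seen. LPS + TBHQ against the control gave 2 members higher (21.2% of all genes) and 1 lower (22.5% of all). PIC + TBHQ against the control gave 3 higher (26.4% of all) and 2 lower (26.0% of all). Against TBHQ alone, LPS + TBHQ had 4 members higher (23.1% of all) and 1 lower (23.6% of all), and PIC + TBHQ had 6 higher (27.9% of all) and 1 lower (26.7% of all), with the difference in time named above. *Vsir* against TBHQ alone was among the higher genes with PIC + TBHQ (log2FC = 0.20 ± 0.049, FDR = 0.00273), a call that scaling by library total ended at 0.053.

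After TBHQ, PIC still gave higher levels than LPS for part of the set. In PIC + TBHQ against LPS + TBHQ, 4 members were higher (11.9% of all genes) and 1 was lower (8.39% of all). *Cd274* was higher by log2FC = 0.88 ± 0.057, FDR = 1.7e-15, and *Cd80* by log2FC = 0.37 ± 0.061, FDR = 2.3e-05. *Cd83* was higher (log2FC = 0.27 ± 0.060, FDR = 0.0075), a call lost under scaling by library total (0.19) and without PIC + TBHQ replicate 1 (0.23). *Icosl* was higher (log2FC = 0.84 ± 0.17, FDR = 0.0151), which was lost in limma on log2(FPKM + 1) (0.29) and without LPS + TBHQ replicate 1 (0.74), LPS + TBHQ replicate 3 (0.78) or PIC + TBHQ replicate 2 (0.77). *Vsir* was lower (log2FC = -0.16 ± 0.061, FDR = 0.0286). That call was lost in limma at both pseudocounts (-0.16 and -0.17) and without LPS + TBHQ replicate 1 (-0.15), LPS + TBHQ replicate 3 (-0.13), PIC + TBHQ replicate 1 (-0.14) or PIC + TBHQ replicate 2 (-0.15).

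For each tested gene, the genes with the most similar pattern over the 18 libraries were sought among 10450 genes with a mean of at least 50 counts (10451 for *Icosl*), by Pearson's r of log2 CPM. The libraries fall into 6 groups, so r mainly reflects the group means, and it is given as a description. *Cd274* was closest to *Traf1* (r = 0.997), *Tnfaip3* (r = 0.995) and *Cflar* (r = 0.994). *Cd80* was closest to *Ccl9* (r = 0.992), *Gadd45b* (r = 0.990) and *Gys1* (r = 0.990). For *Cd83* these were *Ifi207* (r = 0.966), *Eif2ak2* (r = 0.958) and *Ifit2* (r = 0.951). *Icosl* came closest to *Raph1* (r = 0.950), *Lims1* (r = 0.938) and *Med13* (r = 0.931), and *Cd86* to *Wdr11* (r = 0.941), *Ndrg1* (r = 0.940) and *Ndufa7* (r = 0.940). *Havcr2* was closest to *Slc7a6* (r = 0.920), *Clec4a2* (r = 0.919) and *Xpo5* (r = 0.915), and *Vsir* to *Sel1l* (r = 0.936), *Edil3* (r = 0.891) and *Cox6a2* (r = 0.884). These genes were chosen by r alone.

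The counts in the lists that follow can be read beside the shares of all tested genes. Against the control, LPS raised 24.0% of them and lowered 24.1%, while for PIC the shares were 28.6% and 30.1% in that order. In LPS + TBHQ against LPS they were 11.7% and 12.2%, and in PIC + TBHQ against PIC 15.8% and 15.5%. Whether a list differs from these shares was not tested. Of 18 genes listed as other costimulatory and coinhibitory ligands, among them the receptor gene *Cd40*, 11 were tested. With LPS 5 were higher and 2 lower than in the control, with a median log2FC of 0.26, and with PIC 7 were higher and 3 lower, with a median of 0.65. *Cd40*, the receptor through which T cells signal back to the presenting cell, went from 2.63 FPKM in the control to 12.9 with LPS (log2FC = 2.28 ± 0.061, FDR = 1.5e-23) and 19.6 with PIC (log2FC = 2.88 ± 0.064, FDR = 1.9e-27). *Cd200*, a ligand that restrains myeloid cells, rose with LPS (log2FC = 2.23 ± 0.11, FDR = 8.2e-15) and PIC (log2FC = 3.06 ± 0.047, FDR = 7.4e-20). *Tnfsf9*, the ligand of 4-1BB and the most abundant gene of the list, held 19.97 FPKM in the control and 36.0 with PIC (log2FC = 0.84 ± 0.093, FDR = 2.1e-11), and its rise with LPS (log2FC = 0.26 ± 0.11, FDR = 0.00987) was lost with scaling by library total (0.17), without control replicate 3 (0.19) and without LPS replicate 3 (0.21). *Cd48*, a ligand of CD244, with 13, 11 and 16 counts in the control and 8, 6 and 2 with PIC, was lower with PIC (log2FC = -1.18 ± 0.48, FDR = 0.0431). That call was lost in DESeq2 (-1.16) and without the filter on low counts (-1.17). It was also lost without control replicate 1 (-1.16), control replicate 3 (-1.07), LPS replicate 1 (-1.18), PIC replicate 2 (-1.30), PIC replicate 3 (-0.69), TBHQ replicate 3 (-1.18), LPS + TBHQ replicate 3 (-1.18) or PIC + TBHQ replicate 3 (-1.18). *Tnfsf18* had 15 to 19 counts in the control, and 3 to 7 with LPS and 4 to 5 with PIC, close to the floor of 3 counts. It fell with LPS (log2FC = -1.70 ± 0.29, FDR = 0.0035) and with PIC (log2FC = -1.87 ± 0.13, FDR = 0.00125). *Tnfsf15* had 1, 0 and 2 counts in the control, 5, 1 and 2 with LPS, 23, 24 and 13 with PIC and 2, 7 and 6 with PIC + TBHQ, and since the control was under the floor no fold is given, while for its call in PIC + TBHQ below PIC DESeq2 gave no FDR.

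In LPS + TBHQ against LPS, 4 of the 11 tested genes of this list were lower, where 12.2% of all tested genes were, with a median of -0.12. In PIC + TBHQ against PIC 6 were lower (15.5% of all) and 1 higher (15.8% of all), with a median of -0.25. *Cd40* was lower with LPS (log2FC = -1.18 ± 0.065, FDR = 5.8e-16) and with PIC (log2FC = -1.08 ± 0.037, FDR = 6.9e-16). *Cd200* was lower with LPS (log2FC = -0.51 ± 0.10, FDR = 0.00216, lost in limma on log2(FPKM + 0.1) (-0.49)) and with PIC (log2FC = -0.79 ± 0.092, FDR = 8.1e-07), and so was *Cd47*, a ligand of SIRPα that restrains phagocytosis, with LPS (log2FC = -0.45 ± 0.026, FDR = 8.9e-11) and with PIC (log2FC = -0.49 ± 0.027, FDR = 9.3e-12). *Tnfsf9* was lower in PIC + TBHQ (log2FC = -0.25 ± 0.094, FDR = 0.0107), a call lost with scaling by library total (-0.18) and without PIC + TBHQ replicate 1 (-0.20), while in LPS + TBHQ it gave log2FC = 0.071 ± 0.078, FDR = 0.59, and the difference (log2FC = -0.32 ± 0.12, FDR = 0.139) was called only without PIC + TBHQ replicate 3 (-0.42). The gene that was higher in PIC + TBHQ was *Tnfsf18*, with 20, 8 and 7 counts against 4, 4 and 5 with PIC (log2FC = 1.38 ± 0.41, FDR = 0.04). That call was lost in DESeq2 (1.39), without the filter on low counts (1.38), without PIC replicate 1 (1.37), without PIC replicate 2 (1.36), without PIC replicate 3 (1.37) and without PIC + TBHQ replicate 1 (0.76), and the difference from the effect with LPS gave log2FC = 1.27 ± 0.51, FDR = 0.504.

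All 7 ligands and partners of TIM-3, VISTA and PD-L2 that were listed could be tested. *Lgals9*, which encodes galectin-9, a ligand of TIM-3, had the highest FPKM of them as a mean over all libraries, while *Bag6* was above it with TBHQ alone. Its mean FPKM was 161 with PIC and 103 when TBHQ came first, 134 with LPS and 67.9 when TBHQ came first, against 62.3 in untreated cells. It rose with LPS (log2FC = 1.10 ± 0.022, FDR = 7.2e-23) and PIC (log2FC = 1.35 ± 0.052, FDR = 5.9e-26), and it was lower with TBHQ before LPS (log2FC = -0.99 ± 0.020, FDR = 8.6e-21) and before PIC (log2FC = -0.64 ± 0.051, FDR = 1.0e-15), and these effects differed (log2FC = 0.35 ± 0.055, FDR = 1.5e-04). *Hmgb1* fell with LPS (log2FC = -0.86 ± 0.079, FDR = 1.7e-10) and PIC (log2FC = -0.80 ± 0.071, FDR = 3.6e-10). *Igsf11*, a partner of VISTA, fell with PIC (log2FC = -0.89 ± 0.074, FDR = 1.0e-10) and with LPS (log2FC = -0.31 ± 0.048, FDR = 0.00289), and was higher in PIC + TBHQ than in PIC (log2FC = 0.29 ± 0.070, FDR = 0.017), a call lost without PIC replicate 1 (0.25), without PIC replicate 2 (0.25) and without PIC + TBHQ replicate 1 (0.25), with log2FC = 0.33 ± 0.10, FDR = 0.213 for the difference from the effect with LPS. *Selplg* rose with LPS (log2FC = 0.27 ± 0.096, FDR = 0.0107, lost with scaling by library total (0.18) and without control replicate 3 (0.18)). *Ceacam1* rose with PIC (log2FC = 0.28 ± 0.093, FDR = 0.0065, lost with scaling by library total (0.066) and without PIC replicate 3 (0.22)) and with LPS (log2FC = 0.40 ± 0.073, FDR = 3.2e-04), and was higher still in LPS + TBHQ than in LPS (log2FC = 0.29 ± 0.076, FDR = 0.00844, lost without LPS + TBHQ replicate 1 (0.22)), with log2FC = 0.35 ± 0.067, FDR = 0.00129 for PIC + TBHQ against PIC. Over the list, 3 genes were higher and 2 lower with LPS, 2 and 2 with PIC, 1 and 1 in LPS + TBHQ against LPS and 2 and 1 in PIC + TBHQ against PIC, and the medians lay between -0.029 and 0.071.

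A list named for the turnover of B7 proteins at the surface held 6 genes, of which 5 were tested. Whether each of them acts on B7 proteins in these cells was not tested. *Cmtm6*, whose product keeps PD-L1 at the membrane, had the highest FPKM as a mean over all libraries, with 16.4 in the control, where *Stub1* had 16.5, and 19.3 with PIC (log2FC = 0.22 ± 0.043, FDR = 2.2e-04), a call that scaling by library total ended, and in PIC + TBHQ against PIC it gave log2FC = -0.074 ± 0.035, FDR = 0.281. *Stub1*, a ubiquitin ligase, fell with LPS (log2FC = -0.48 ± 0.070, FDR = 2.7e-06) and with PIC (log2FC = -0.73 ± 0.064, FDR = 4.2e-10), and was higher in LPS + TBHQ than in LPS (log2FC = 0.34 ± 0.070, FDR = 0.00112) and in PIC + TBHQ than in PIC (log2FC = 0.36 ± 0.12, FDR = 5.9e-04). *Cmtm4* fell with LPS (log2FC = -0.24 ± 0.044, FDR = 4.4e-04) and with PIC (log2FC = -0.37 ± 0.043, FDR = 3.2e-07). *Marchf8*, a ligase that acts on CD86, was higher in PIC + TBHQ than in PIC (log2FC = 0.15 ± 0.019, FDR = 0.00714, lost without PIC replicate 2 (0.13)), and its relative *Marchf1* was not tested, at 0.043 FPKM in the control. With LPS 2 of the 5 were lower, and with PIC 1 was higher and 3 lower, while TBHQ before the stimulus gave 2 higher with LPS and 3 with PIC. The lower genes with PIC include *Lrba* (log2FC = -0.12 ± 0.044, FDR = 0.0397), whose call was lost in DESeq2 (-0.11), in edgeR on these groups alone (-0.11), with RLE size factors (-0.10), without the filter on low counts (-0.12), with genes of at least 50 mean counts (-0.097), in limma on log2(FPKM + 1) (-0.077) and in limma on log2(FPKM + 0.1) (-0.099). It was also lost without control replicate 2 (-0.13), control replicate 3 (-0.081), LPS replicate 2 (-0.11), LPS replicate 3 (-0.11), PIC replicate 1 (-0.11), PIC replicate 2 (-0.10), PIC replicate 3 (-0.11), PIC + TBHQ replicate 2 (-0.12) or PIC + TBHQ replicate 3 (-0.12). Of the genes higher with TBHQ before the stimulus, *Marchf8* with LPS (log2FC = 0.12 ± 0.048, FDR = 0.0496) lost its call in most settings and with most libraries left out, and *Cmtm4* with PIC (log2FC = 0.19 ± 0.082, FDR = 0.00877) lost it without PIC replicate 1 (0.16) and without PIC + TBHQ replicate 3 (0.12). The medians were -0.097, -0.12, 0.12 and 0.15 in that order.

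The MHC class II molecules that a costimulatory signal accompanies were near the floor. *H2-Aa* held at most 0.006 FPKM as a group mean, *H2-Ab1* at most 0.017 and *Ciita*, the transactivator of these genes, at most 0.009. Of the 10 genes listed for this pathway 4 were tested. *Ctss*, the protease that trims the invariant chain, was the most abundant at 822 FPKM in the control, and it fell with LPS (log2FC = -0.25 ± 0.050, FDR = 1.1e-07) and PIC (log2FC = -0.15 ± 0.034, FDR = 1.6e-04) and further with TBHQ before LPS (log2FC = -0.40 ± 0.045, FDR = 8.3e-12) and before PIC (log2FC = -0.38 ± 0.023, FDR = 2.5e-11). *Cd74*, the invariant chain, was lower with TBHQ before LPS (log2FC = -0.40 ± 0.054, FDR = 2.4e-08) and, at log2FC = -0.14 ± 0.059, FDR = 0.022, before PIC, where the call was lost with scaling by library total (-0.069), without PIC replicate 2 (-0.13) and without PIC + TBHQ replicate 2 (-0.097). With PIC against the control its call (log2FC = 0.18 ± 0.037, FDR = 0.00102) was lost with scaling by library total (-0.036). The difference between the effects of TBHQ on *Cd74* (log2FC = 0.26 ± 0.080, FDR = 0.0305) lost its call in edgeR on these groups alone (0.24), in limma on log2(FPKM + 1) (0.24), in limma on log2(FPKM + 0.1) (0.24), without LPS replicate 1 (0.21), without PIC replicate 1 (0.22), without PIC replicate 3 (0.24), without LPS + TBHQ replicate 2 (0.23), without PIC + TBHQ replicate 1 (0.22) and without PIC + TBHQ replicate 3 (0.25). *Ifi30*, a thiol reductase of the lysosome, fell with LPS (log2FC = -0.62 ± 0.056, FDR = 1.4e-14) and PIC (log2FC = -0.68 ± 0.055, FDR = 5.5e-16) and was higher with TBHQ before LPS (log2FC = 0.24 ± 0.033, FDR = 7.0e-05) and before PIC (log2FC = 0.24 ± 0.046, FDR = 3.8e-05). *H2-DMa*, a chaperone of peptide loading, was higher with PIC than in the control (log2FC = 0.46 ± 0.094, FDR = 0.0135), a call lost with scaling by library total (0.24) and without control replicate 2 (0.41), with log2FC = 0.15 ± 0.086, FDR = 0.533 for PIC against LPS. The list had 1 gene higher and 2 lower with LPS, 2 and 2 with PIC, and 1 and 2 in each comparison of stimulus and TBHQ with the stimulus alone, with medians of -0.0020, 0.015, -0.079 and 0.053.

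Of 9 other inhibitory receptors of myeloid cells 8 were tested, beside which *Havcr2* can be read. *Sirpa*, the receptor of CD47, had the highest FPKM as a mean over all libraries, with 141 in the control, although *Lilrb4a* was above it with LPS, at 131 against 123 FPKM, and with PIC, at 157 against 118. *Sirpa* fell slightly with LPS (log2FC = -0.21 ± 0.032, FDR = 6.9e-07) and PIC (log2FC = -0.28 ± 0.031, FDR = 1.3e-09). *Lilrb4a* rose with LPS (log2FC = 0.83 ± 0.059, FDR = 1.4e-18) and PIC (log2FC = 1.08 ± 0.024, FDR = 2.5e-22). *Cd300a* fell with LPS (log2FC = -0.75 ± 0.063, FDR = 4.0e-15) and PIC (log2FC = -1.03 ± 0.058, FDR = 3.3e-19) and was higher with TBHQ before LPS (log2FC = 0.64 ± 0.060, FDR = 1.4e-12) and before PIC (log2FC = 0.71 ± 0.047, FDR = 1.7e-13). *Pirb* fell with LPS (log2FC = -0.81 ± 0.25, FDR = 0.00153) and PIC (log2FC = -0.78 ± 0.21, FDR = 0.0015). *Clec12a* was lower with TBHQ before LPS (log2FC = -0.79 ± 0.030, FDR = 3.5e-15) and before PIC (log2FC = -0.84 ± 0.024, FDR = 6.9e-16), and its call with LPS against the control (log2FC = -0.13 ± 0.054, FDR = 0.0198) was lost in DESeq2 (-0.12), without the filter on low counts (-0.13), without control replicate 2 (-0.080) and without LPS replicate 1 (-0.11). *Lair1* was higher in both, at log2FC = 0.60 ± 0.043, FDR = 4.0e-08 and log2FC = 0.49 ± 0.069, FDR = 1.5e-06. With LPS 1 receptor was higher and 4 lower, with PIC 1 and 4, in LPS + TBHQ against LPS 2 and 2, and in PIC + TBHQ against PIC 4 and 2. The medians were -0.13, -0.18, 0.086 and 0.33.

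The receptors that T cells use for these ligands had few counts. *Ctla4* had 0 to 2 counts in a library and *Icos* had 6, 7 and 8 in the control and 0 to 2 in the other groups, and neither was tested. *Cd28* had 27, 33 and 17 counts in the control, 5, 12 and 12 with LPS, 5, 3 and 1 with PIC and 7, 5 and 24 with PIC + TBHQ, where 1 library holds most of the counts. It was lower with LPS (log2FC = -1.23 ± 0.44, FDR = 0.0253), a call lost in DESeq2 (-1.24), in limma on log2(FPKM + 0.1) (-0.77), without control replicate 1 (-1.16), without control replicate 2 (-1.02) and without LPS replicate 1 (-0.92). It was also called lower with PIC, whose mean count of 3 lies at the floor, so no fold is given, and the call of PIC + TBHQ above PIC was lost in limma at both pseudocounts and without PIC replicate 2, PIC replicate 3 or PIC + TBHQ replicate 3. *Pdcd1*, which encodes PD-1, had 5, 5 and 1 counts in the control, 12, 17 and 20 with PIC (log2FC = 2.22 ± 0.44, FDR = 0.00264) and 0, 5 and 11 with PIC + TBHQ. The call of PIC + TBHQ below PIC was lost without PIC replicate 2 (-1.55), without PIC replicate 3 (-1.57), without PIC + TBHQ replicate 1 (-1.04) and without PIC + TBHQ replicate 2 (-1.63), and DESeq2 gave no FDR for it. With LPS *Pdcd1* had 2, 9 and 7 counts and with LPS + TBHQ 3, 0 and 2, which is under the floor.

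Markers of the cell type were read beside these results. Of 10 macrophage markers 9 were tested, with *Lyz2* the most abundant at 4531 FPKM in the control, and *Mertk* had 0 to 5 counts in a library. Their summed level was 6346 ± 201 FPKM in untreated cells and 5823 ± 43.1 after TBHQ alone. It was 6113 ± 121 FPKM with PIC and 6499 ± 219 when TBHQ came first, and 5892 ± 166 FPKM with LPS and 6586 ± 120 when TBHQ came first. Without the constant in the FPKM the sum was 6704 ± 194 in untreated cells, 5826 ± 136 with LPS and 5490 ± 105 with PIC, so PIC lay above LPS in the mean of one scale and below it in the other. The sum with TBHQ alone was then 6128 ± 44.5, above every PIC library, whereas in FPKM it lay below every PIC library. PIC + TBHQ, at 6169 ± 198, then lay below the control, which it overlapped in FPKM. LPS + TBHQ, at 6618 ± 128, overlapped the control on both scales. *Adgre1*, which encodes F4/80, rose with LPS (log2FC = 1.45 ± 0.050, FDR = 1.6e-23) and PIC (log2FC = 1.86 ± 0.061, FDR = 2.7e-27), and like most of the 8 genes it was lower with TBHQ before LPS (log2FC = -0.34 ± 0.031, FDR = 5.5e-07) and before PIC (log2FC = -0.53 ± 0.038, FDR = 1.6e-11). *Csf1r* fell with LPS (log2FC = -0.75 ± 0.038, FDR = 1.0e-18) and PIC (log2FC = -0.85 ± 0.055, FDR = 1.3e-20). *Itgam* rose with LPS (log2FC = 0.96 ± 0.087, FDR = 3.2e-16) and PIC (log2FC = 1.25 ± 0.045, FDR = 4.5e-20), as did *Cd14*, with LPS (log2FC = 0.63 ± 0.050, FDR = 9.2e-18) and PIC (log2FC = 1.02 ± 0.040, FDR = 3.5e-24). *Fcgr1* was lower with TBHQ before LPS (log2FC = -1.37 ± 0.081, FDR = 1.4e-15) and before PIC (log2FC = -1.08 ± 0.081, FDR = 5.0e-12). *Csf1r* was higher with TBHQ before LPS (log2FC = 0.39 ± 0.037, FDR = 2.3e-10) and before PIC (log2FC = 0.45 ± 0.060, FDR = 4.9e-12), and so was *Lyz2*, with LPS (log2FC = 0.25 ± 0.030, FDR = 5.8e-08) and PIC (log2FC = 0.22 ± 0.044, FDR = 9.3e-07). In both comparisons of a stimulus and TBHQ with the stimulus, 3 markers were higher, these and *Cd68*, and 3 were lower, *Fcgr1* and *Adgre1* with either stimulus, *Spi1* with LPS and *Cd14* with PIC. Against the control, LPS gave 4 markers higher and 3 lower, and PIC gave 5 higher and 3 lower. *Mrc1*, with 13, 19 and 25 counts in the control and 28, 23 and 37 with PIC, was higher with PIC (log2FC = 0.73 ± 0.24, FDR = 0.049), a call lost in DESeq2 (0.75), with scaling by library total (0.51), without the filter on low counts (0.73) and with a replicate block (0.74). It was also lost without control replicate 1 (0.55), control replicate 2 (0.73), LPS replicate 1 (0.73), PIC replicate 1 (0.72), PIC replicate 3 (0.66), TBHQ replicate 1 (0.73), LPS + TBHQ replicate 1 (0.73), LPS + TBHQ replicate 2 (0.73), LPS + TBHQ replicate 3 (0.73), PIC + TBHQ replicate 1 (0.73) or PIC + TBHQ replicate 2 (0.73). *Spi1* was higher with PIC (log2FC = 0.15 ± 0.029, FDR = 0.00315, lost with scaling by library total (-0.069)) and with LPS (log2FC = 0.12 ± 0.065, FDR = 0.0227), where the call was lost with scaling by library total (0.029), in limma on log2(FPKM + 1) (0.12), in limma on log2(FPKM + 0.1) (0.12), without control replicate 1 (0.096) and without LPS replicate 3 (0.065). It was lower with TBHQ before LPS (log2FC = -0.16 ± 0.062, FDR = 0.00624), a call lost without LPS replicate 3 (-0.092). The *Cd68* calls were lost without LPS replicate 1 (0.10) and without LPS + TBHQ replicate 3 (0.079) for LPS and without PIC replicate 1 (0.084) and without PIC replicate 2 (0.090) for PIC. The T cell markers *Cd3e* and *Cd8a* had 0 counts in all 18 libraries, and the summed level of 12 such markers, 2.59 to 5.37 FPKM as group means, came mainly from *Lck*, at 2.55 FPKM in the control and 4.70 with PIC. Like most of the 8 genes, *Lck* was called higher with LPS (4.05 FPKM) and with PIC than in the control, and lower in LPS + TBHQ (3.03 FPKM) than in LPS. In PIC + TBHQ, at 4.54 FPKM, it was not called against PIC. Of 8 dendritic cell markers *Ccr7* and *Siglech* were at 0 throughout, *Itgax* was the most abundant, *Zbtb46* was higher with PIC than in the control (log2FC = 0.84 ± 0.077, FDR = 0.0337, lost in DESeq2 (0.86), with scaling by library total (0.62) and without the filter on low counts (0.84) and without any 1 of the 6 libraries compared, at 0.76 to 0.89), and the sum ran from 0.447 FPKM with TBHQ to 1.29 with LPS + TBHQ. *Itgax* was called lower with TBHQ alone than in the control, at 0.234 against 0.752 FPKM. Whether these levels bear on the results above was not tested.

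RefSeq promoter windows of GRCm38.p6, 250 bases before to 50 bases after a transcript start, were found for 6 of the 8 genes, *Cd83* and *Cd86* being the others. For *Cd274* and *Cd80* that start lies inside the RefSeq span of the gene, not at its end. They were searched on both strands for GAAANNGAA, the core of the interferon-stimulated response element, which 8.56% of 32851 promoter windows of this length hold, and for TTCNNNGAA, the STAT site, which is its own reverse complement and which 8.30% hold. For NF-κB the motifs were GGGANTTCC, in 1.68% of windows, and GGGANNTCC, which includes it, in 4.30%. The core of the antioxidant response element, TGACNNNGC, occurs in 12.4%. There was 1 match in *Cd274* and 1 in *Icosl*, and no match in the windows of *Cd80*, *Havcr2*, *Pdcd1lg2* and *Vsir*. Whether these matches exceed the shares of all windows was not tested. In *Cd274* the interferon motif lay on the minus strand from position -76, and in *Icosl* the wider NF-κB motif lay on the minus strand from position -111. The 250 bases before the start are shown for *Cd274* and *Icosl* because, once the values were seen, they were the members that rose most with PIC, 5′ to 3′ on the plus strand of GRCm38.p6, with the match in capitals, for *Cd274* at chr19:29367188-29367437 and for *Icosl* at chr10:78069118-78069367. A match describes letters and does not show that a factor binds there.
Cd274: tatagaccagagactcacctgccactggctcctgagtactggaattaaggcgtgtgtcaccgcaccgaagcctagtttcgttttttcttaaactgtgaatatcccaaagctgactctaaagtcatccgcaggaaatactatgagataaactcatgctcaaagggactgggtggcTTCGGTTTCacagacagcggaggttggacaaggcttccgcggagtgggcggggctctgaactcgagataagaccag
Icosl: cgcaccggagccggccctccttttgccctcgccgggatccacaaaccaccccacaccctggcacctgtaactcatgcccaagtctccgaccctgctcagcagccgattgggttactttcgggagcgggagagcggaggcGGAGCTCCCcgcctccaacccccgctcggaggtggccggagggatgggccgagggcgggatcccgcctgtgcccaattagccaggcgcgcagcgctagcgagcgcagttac

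In the positions that the authors list, whose build the sources name as both GRCm38 and mm39, *Cd274* (chr19:29344855-29365495) and *Pdcd1lg2* (chr19:29388319-29448561) are neighbours on the plus strand, and *Cd80* (chr16:38275923-38316697, plus strand) and *Cd86* (chr16:36424231-36486443, minus strand) lie on the same chromosome, as do *Vsir* (chr10:60182630-60208463) and *Icosl* (chr10:77905136-77919747), both on the plus strand. *Cd83* lies at chr13:43938251-43956608 and *Havcr2* at chr11:46345762-46372082, both on the plus strand. The starts listed lie 17252 to 181507 bases from those of RefSeq in GRCm38, so these positions are not on the scale of the promoter windows above and cannot be set beside them. Genes of the opposite strand overlap *Cd274*, *Pdcd1lg2* and *Vsir*, and the methods call the libraries strand-specific while the labels name both directional and non-directional ones. Whether counting used strand is not stated, so reads of such a pair may not be told apart. *Gm36043*, opposite *Cd274*, had a mean of 26.7 counts in the control and 154 with PIC, against 314 to 389 and 1775 to 2096 for *Cd274*. *A930007I19Rik*, opposite *Pdcd1lg2*, had a mean of 54.3 counts and *Cdh23*, opposite *Vsir*, one of 8.33. Of the 50-base words in GENCODE transcripts of *Cd274*, 1.68% also occur in another gene, of those of *Havcr2* 0.405%, and of those of the other 6 genes 0%.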

How the data were processed

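RNA from 18 libraries of a mouse macrophage line was read as deposited. The authors made whole-number counts per gene, which were deposited without scaling, and the submitters' processing notes name HISAT2 2.0.5, StringTie 1.3.3b and featureCounts 1.5.0-p3 and the builds GRCm38 and mm39, which contradict each other. The FPKM values were deposited by the authors, and they equal counts over gene length and library total times a constant per library of 0.943 to 1.12. The gene length column is also as the authors deposited it, and positions are as their files list them. Libraries were grouped by label, 3 per group, and 56748 genes are listed.

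Counts were tested in edgeR 4.0.16 (R 4.3.3) with TMM scaling, filterByExpr and 1 quasi-likelihood fit over all libraries, which kept 13691 genes, with p adjusted by Benjamini-Hochberg over them. The SE of a log2FC comes from the replicates' log2 CPM (counts scaled to the library total) with a prior count of 2. Alternatives used DESeq2 1.42.0 and limma 3.58.1 on log2 FPKM with a pseudocount of 1 or 0.1, RLE or library-total scaling, other filters, and each library left out in turn, and the same was done for the list genes after values were seen. The scripts were tested on simulated data. Tables were made with Python 3.11.15, pandas 2.3.3 and matplotlib 3.10.9.

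The members and lists were chosen with earlier results of these data known, and 5 comparisons were added after values were seen: the stimulus with TBHQ against the control and against TBHQ alone, and PIC + TBHQ against LPS + TBHQ. Genes named are the members, in each list the gene with the highest mean FPKM and up to 3 called genes with the largest log2FC in each comparison of a stimulus with the control or of a stimulus and TBHQ with the stimulus, and for each member the 3 genes with the highest r. List genes at the floor, those whose call an alternative ended, *Bag6* and *Cd200r1* were named after values were seen.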

Additional observations from a re-analysis of the deposited data

Results flagged for a closer look

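The effect of TBHQ on 3 genes of the lists differed between the stimuli by the test of the difference itself (edgeR, PIC minus LPS). Of all tested genes, 0.825% were called higher and 1.01% lower in this test. The 3 genes were 1 of 7 tested ligands and partners, 1 of 4 genes of the MHC class II pathway and 1 of 8 other inhibitory receptors. Whether these counts differ from the shares of all genes was not tested. For *Lgals9* the difference was 0.3468 (FDR = 1.5e-04), with log2FC = -0.99 for LPS + TBHQ against LPS and -0.64 for PIC + TBHQ against PIC. For *Cd74* it was 0.2579 (FDR = 0.0305), with -0.40 and -0.14, and the call was lost in limma, in edgeR on these groups alone and without each of 6 of the libraries in turn. For *Cd200r1*, an inhibitory receptor that was picked for this difference after the values were seen, it was 0.3766 (FDR = 0.00674), with -0.0026 and 0.37. The cause of these differences was not tested.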

How the results depend on the processing

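Of 2256 log2FC values of members under 9 other settings and with each of the 18 libraries left out, 2173 kept their direction and their side of the threshold, 28 lost a call and 14 gained one. The other 41 were uncalled throughout and changed sign, and none that was called did. Each group has 3 libraries, and *Pdcd1lg2*, *Icosl* and *Cd86* are limited by depth.

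At an FDR below 0.01 with an absolute log2FC above 2, the members called fell to 2 higher for PIC against the control and to 0 in every other comparison and direction. At an FDR below 0.01 alone, LPS against the control had 3 members higher (19.3% of all tested genes) and PIC against LPS 1 lower (7.96% of all). PIC + TBHQ against LPS + TBHQ then had 3 higher (8.22% of all) and 0 lower (5.21% of all). With a library left out, LPS against the control had 4 to 6 higher. For PIC against LPS, the members lower were 1 in DESeq2, in edgeR on these groups only, with RLE factors and in limma with either pseudocount, and 1 to 2 with a library left out. For PIC + TBHQ against LPS + TBHQ they were 0 in limma with either pseudocount and 0 to 1 with a library left out, and the members higher were 3 in limma on log2(FPKM + 1) and 3 to 4 with a library left out. Scaling by library total gave 1 member higher in the difference between the effects of TBHQ (0 to 1 with a library left out), 2 lower for LPS + TBHQ against the control (1 to 2 with a library left out) and 4 lower for PIC + TBHQ against the control (2 to 3 with a library left out). The cause was not tested.

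With replicate number as a block, LPS + TBHQ against the control had 2 members lower, and *Vsir* was called at 0.11 for LPS and -0.12 for LPS + TBHQ against the control. Over 45 pairs of libraries with the same number, r ran from -0.0444 to 0.0645, and 0 were over 0.1, so the numbers were not used to pair samples.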
